A study of Homo sapiens with 6 samples.

Results

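The genes of MHC class I antigen presentation were examined in cells labelled HepG2 after knockdown of ARHGEF2, and none of them passed the test over all genes. The genes were HLA-B, HLA-C, HLA-E, B2M, TAP1, TAP2, TAPBP, ERAP1 and NLRC5, taken by gene name, and all 9 were found among the 27605 genes of the deposited table. RNA had been sequenced from cells labelled HepG2, a human liver cancer line. The control cells (shNC, genotype WT, n = 3 libraries) served as the comparison for cells infected with a lentivirus whose short hairpin RNA targets ARHGEF2 (shARHGEF2, genotype ARHGEF2 knockdown, n = 3 libraries). All 6 libraries came from cells kept in DMEM with fetal bovine serum, with no drug named in the labels. The sources used here do not say how many hairpins were used or whether the libraries came from separate cultures, so p-values measure the spread between these libraries only.

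MHC class I molecules show peptides from inside the cell to cytotoxic T cells and natural killer cells. A heavy chain (HLA-B, HLA-C or the less variable HLA-E) pairs with the light chain encoded by B2M in the endoplasmic reticulum. TAP1 and TAP2 form the transporter that brings peptides in from the cytosol, tapasin (TAPBP) holds the empty heavy chain at the transporter, and ERAP1 trims the peptides. NLRC5 is the transactivator that acts with RFX, CREB/ATF and NF-Y factors at class I promoters. Most of these genes are known to be induced by interferons.

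The promoters of the 6 genes below are shown, to set the heavy chains HLA-B and HLA-C, the transporter genes TAP1 and TAP2, B2M and TAPBP side by side. Each window holds 250 bases before and 50 after a RefSeq transcript start on GRCh38.p14, written 5′ to 3′ on the strand of the gene. The lines give HLA-B (chr6:31357130-31357429, minus strand), HLA-C (chr6:31272043-31272342, minus strand), B2M (chr15:44711267-44711566, plus strand), TAP1 (chr6:32853655-32853954, minus strand), TAP2 (chr6:32838690-32838989, minus strand) and TAPBP (chr6:33314029-33314328, minus strand). Capitals mark every match, on either strand, to 4 motifs: the interferon-stimulated response element core (GAAA, 2 bases of any kind, GAAA), the NF-Y motif CCAAT, the cAMP response element core TGACG, and the NF-kB motif (GGG, 2 bases of any kind, TT, 1 base of any kind, CC). RefSeq windows were matched for 7 of the 9 genes, 9 windows in all, and there was none for HLA-E or NLRC5. TAP1 and ERAP1 have a second window, and that of TAP1 (chr6:32852712-32853011, minus strand), not printed, had 0 matches to any of the 4 motifs.
HLA-B: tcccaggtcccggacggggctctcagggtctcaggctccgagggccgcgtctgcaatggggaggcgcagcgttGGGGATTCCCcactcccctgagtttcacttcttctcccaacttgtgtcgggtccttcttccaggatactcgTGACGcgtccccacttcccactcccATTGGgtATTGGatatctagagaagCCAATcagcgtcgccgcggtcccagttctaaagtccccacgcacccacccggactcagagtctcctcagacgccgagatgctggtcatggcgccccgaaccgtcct
HLA-C: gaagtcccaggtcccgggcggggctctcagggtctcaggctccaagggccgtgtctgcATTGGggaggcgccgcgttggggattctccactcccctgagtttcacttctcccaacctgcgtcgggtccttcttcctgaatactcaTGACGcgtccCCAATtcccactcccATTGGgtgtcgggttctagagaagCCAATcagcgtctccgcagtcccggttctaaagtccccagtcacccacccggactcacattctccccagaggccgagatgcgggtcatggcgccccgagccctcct
B2M: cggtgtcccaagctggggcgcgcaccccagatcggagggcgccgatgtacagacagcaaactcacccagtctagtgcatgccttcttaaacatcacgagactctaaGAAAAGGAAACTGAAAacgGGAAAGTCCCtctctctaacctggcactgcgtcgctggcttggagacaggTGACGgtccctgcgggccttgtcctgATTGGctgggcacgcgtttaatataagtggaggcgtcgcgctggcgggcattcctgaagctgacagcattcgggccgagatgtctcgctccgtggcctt
TAP1: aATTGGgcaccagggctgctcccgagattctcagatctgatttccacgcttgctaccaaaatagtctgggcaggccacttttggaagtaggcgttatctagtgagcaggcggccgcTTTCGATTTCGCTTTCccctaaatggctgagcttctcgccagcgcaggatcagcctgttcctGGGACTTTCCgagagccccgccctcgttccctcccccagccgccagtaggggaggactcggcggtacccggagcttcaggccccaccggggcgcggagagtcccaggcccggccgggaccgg
TAP2: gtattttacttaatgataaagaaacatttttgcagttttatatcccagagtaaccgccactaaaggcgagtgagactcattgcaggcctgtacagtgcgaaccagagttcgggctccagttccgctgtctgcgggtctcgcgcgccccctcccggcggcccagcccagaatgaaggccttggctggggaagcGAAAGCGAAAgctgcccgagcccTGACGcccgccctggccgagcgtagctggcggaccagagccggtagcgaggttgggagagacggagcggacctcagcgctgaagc
TAPBP: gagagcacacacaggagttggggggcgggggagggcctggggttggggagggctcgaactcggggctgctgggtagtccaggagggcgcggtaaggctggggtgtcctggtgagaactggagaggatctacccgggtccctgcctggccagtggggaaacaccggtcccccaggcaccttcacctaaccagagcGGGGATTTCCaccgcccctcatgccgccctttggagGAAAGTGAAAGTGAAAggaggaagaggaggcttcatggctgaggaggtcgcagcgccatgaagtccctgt

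The heavy chain windows held CCAAT most often, with 3 matches in HLA-B and 4 in HLA-C, and each had 1 match to TGACG. The NF-kB motif had 1 match in HLA-B and 0 in HLA-C. Neither heavy chain window matched the interferon core, which had 2 overlapping matches in each of B2M, the printed window of TAP1, and TAPBP, and 1 in TAP2. B2M was the only one of the 6 windows with all 4 motifs. TAP2 had 0 matches to the NF-kB motif and 0 to CCAAT, and TAPBP had 0 to CCAAT and 0 to TGACG. Over all 35116 promoter windows of the same length, the interferon core was found in 3.57%, CCAAT in 34.6%, TGACG in 24.6% and the NF-kB motif in 5.68%. A match describes the letters of the reference window and no binding was measured. Variants of the 4 motifs were not searched, so 0 matches does not mean that such an element is absent.

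ARHGEF2, the targeted gene, had 13.0, 14.4 and 13.9 FPKM in the shNC libraries and 4.2, 4.0 and 4.8 FPKM in the shARHGEF2 libraries. FPKM is the number of fragments per kilobase of transcript, scaled to the mapped fragments of the library. On the log2 scale ARHGEF2 differed by -1.47 (limma, standard error 0.11 and adjusted p = 0.00244), and all 3 shARHGEF2 libraries lay below all 3 controls. Over the 12291 genes tested, 34 (0.277%) had an adjusted p under 0.05. This number was 13, 14 and 102 without shNC replicates 1, 2 and 3, and 12, 15 and 6 without shARHGEF2 replicates 1, 2 and 3. The depth was estimated at 20040000 to 23320000 read pairs a library from the spacing of low FPKM values. Of 14 hepatocyte markers, 8 were in the table and none exceeded 0.907 FPKM in any library, with AFP, APOA1, SERPINA1 and HNF4A at or near 0. Their summed level was 0.414 to 0.726 FPKM in shNC and 0.431 to 1.03 FPKM in shARHGEF2 cells. ALB, APOB, AHSG, TTR, TF and FGB were looked up and had no row. All 27605 genes with a row had a value above 0 in some library. The defining markers of the labelled cell type were thus near 0 or absent from the deposited table, and the identity of the cells was not tested. KRT8, KRT18 and KRT19, keratins of simple epithelia, had means of 153, 175 and 67.6 FPKM, while EPCAM and CDH1 stayed at or below 0.0547 FPKM. The leucocyte marker PTPRC stayed at or below 0.024 FPKM, and the summed leucocyte list (60.8 to 88.0 FPKM in shNC, 75.4 to 85.7 in shARHGEF2 cells) was nearly all CD68. The 4 endothelial markers in the table summed to 0.591 to 0.670 FPKM in shNC and 0.801 to 0.904 FPKM in shARHGEF2 cells, nearly all PECAM1, while VWF and CDH5 were near 0. The 6 fibroblast markers summed to 39.3 to 52.1 FPKM in shNC and 38.1 to 45.1 FPKM in shARHGEF2 cells. They were led by LUM, COL1A1, COL3A1 and DCN (means 29.9, 7.52, 4.61 and 2.12 FPKM). COL1A2 and PDGFRA, of the same list, stayed at or below 0.0453 FPKM. COL1A1, a collagen gene, had 6.23, 6.81 and 6.08 FPKM in shNC and 9.60, 8.26 and 8.12 FPKM in shARHGEF2 libraries with no overlap (log2 scale 0.39, limma, adjusted p = 0.188), while LUM was at -0.26, DCN at -0.23 and COL3A1 at 0.10 on the log2 scale with overlapping groups. The part of these markers in the results below was not tested.

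Across the 9 genes the mean level over the 6 libraries ran from 154 FPKM for HLA-C to 0.630 FPKM for ERAP1. HLA-C and B2M (141 FPKM) were the highest, and HLA-C was above B2M in 4 of 6 libraries, so their order does not hold beyond the spread. HLA-B (104 FPKM) was likewise above HLA-E (86.8 FPKM) in 4 of 6 libraries. Every other neighbouring pair kept its order in 6 of 6 libraries, with TAPBP at 41.5, TAP1 at 31.2, TAP2 at 15.1 and NLRC5 at 2.13 FPKM. TAP1 stood 2.07 times above its transporter partner TAP2. All 9 genes passed the filter of a mean of at least 0.5 FPKM, ERAP1 being just inside it.

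**Figure D1:**
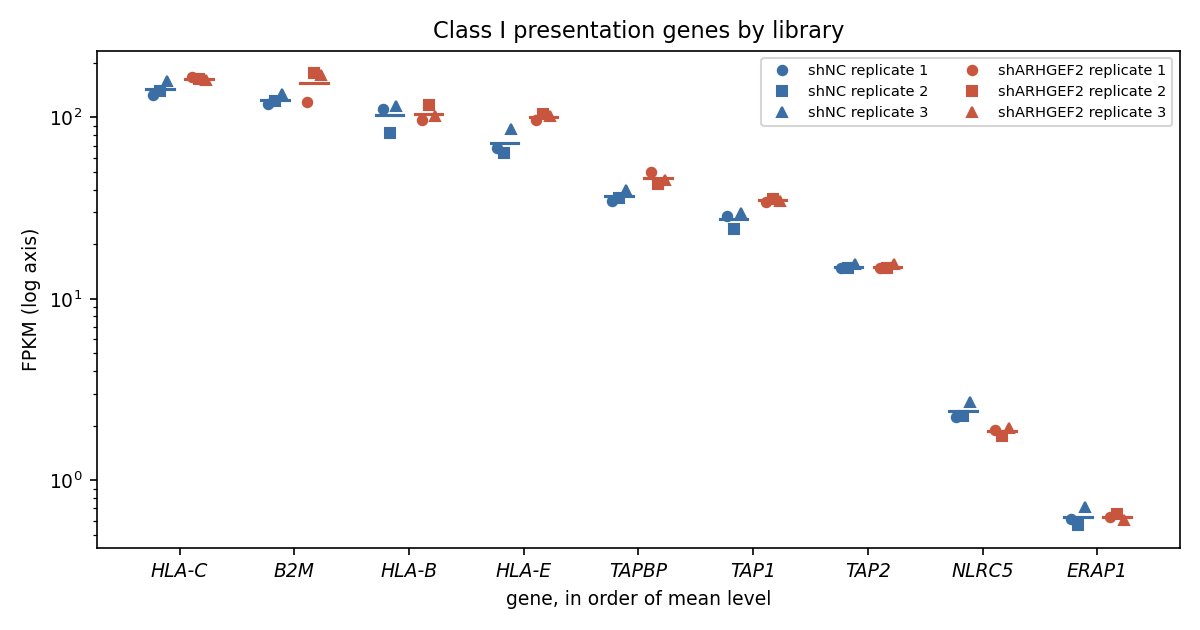
FPKM (log axis) of the 9 class I presentation genes in each library, with shNC in blue and shARHGEF2 in red; circles, squares and triangles are replicates 1, 2 and 3, and bars are group means. HLA-C, HLA-E, TAP1 and TAPBP lie higher in every shARHGEF2 library than in any shNC library, and NLRC5 lies lower, while HLA-B, B2M, TAP2 and ERAP1 overlap.

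In the comparison of shARHGEF2 with shNC cells, 0 of the 9 genes had an adjusted p under 0.05 in limma, and 3 (HLA-E, TAP1 and TAPBP) had an unadjusted p under 0.05, all 3 of them higher in shARHGEF2 cells. Over all genes tested, 0.277% were called, 0.195% higher and 0.0814% lower. An unadjusted p under 0.05 was found for 13.7% of them, 8.1% higher and 5.55% lower. The groups did not overlap for 5 of the 9 genes, 4 higher (HLA-C, HLA-E, TAP1 and TAPBP) and 1 lower (NLRC5) in shARHGEF2 cells. Such separation was seen in 20.5% of all genes tested, 11.3% higher and 9.17% lower. The log2 fold change was above 0 for 6 of the 9 genes, as it was for 49.6% of all genes, and its median was 0.19 over the 9 genes against -0.0016 over all genes. Without shNC replicate 3, 1 of the 9 genes (HLA-E) was called. In bulk RNA, fewer cells with a transcript and less of it per cell cannot be told apart.

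HLA-E (ENSG00000204592, chromosome 6 of GRCh38 from 30489467 to 30494205) encodes the class I chain that presents leader peptides of other class I chains to natural killer cell receptors. It had 67.6, 63.4 and 87.0 FPKM in shNC and 96.7, 104 and 102 FPKM in shARHGEF2 libraries. Each shARHGEF2 library lay above each shNC library, and shNC replicate 3 came nearest to them. The ratio of means was 1.39 and the log2 fold change was 0.48 (standard error 0.12, 95% confidence interval 0.20 to 0.76, adjusted p = 0.148 in limma), the largest among the 9 genes. Without shNC replicate 3 the log2 fold change was 0.62 (adjusted p = 0.0415 in limma), and over all alternatives the adjusted p lay between 0.0415 and 0.463.

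The classical chains had smaller fitted differences. HLA-C (ENSG00000204525, chromosome 6 from 31268749 to 31272130) had 134, 139 and 159 FPKM in shNC and 166, 164 and 162 FPKM in shARHGEF2 libraries. The groups touched without overlapping, since shNC replicate 3 lay only just below the lowest shARHGEF2 library, and the log2 fold change was 0.19 (standard error 0.09, 95% confidence interval -0.014 to 0.39, adjusted p = 0.402 in limma). HLA-B (ENSG00000234745, chromosome 6 from 31269491 to 31357188) had 111, 81.9 and 116 FPKM in shNC and 96.6, 117 and 102 FPKM in shARHGEF2 libraries. Its groups were interleaved, with shNC replicate 2 the lowest of all, and the log2 fold change of 0.04 (95% confidence interval -0.28 to 0.36, adjusted p = 0.939 in limma) took the other sign without shNC replicate 2, without shARHGEF2 replicate 2 and with the GC content trend removed. The annotated span of HLA-B overlaps that of HLA-C on the same strand. In the longest coding transcripts of GENCODE 29, 0% of the 100-base windows of HLA-B, 0.275% of HLA-C and 0.600% of HLA-E were shared with another gene. How reads from HLA alleles unlike the reference were placed was not tested.

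The 3 heavy chains summed to 313, 285 and 362 FPKM in shNC and 360, 385 and 365 FPKM in shARHGEF2 libraries. The groups overlapped, as shNC replicate 3 exceeded shARHGEF2 replicate 1 (difference of means 50.2 FPKM, two-sided exact permutation test, p = 0.2, where 3 libraries against 3 cannot go below 0.1). In a comparison added after these values were seen, HLA-E made up 21.6, 22.3 and 24.0% of this sum in shNC and 26.9, 27.0 and 27.9% in shARHGEF2 libraries. The share was higher in 3 of 3 shARHGEF2 libraries than in any control (p = 0.1 by exact permutation, two-sided, which is the lowest it can reach).

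B2M (ENSG00000166710, chromosome 15 from 44711487 to 44718877), the light chain common to all class I molecules, had 118, 124 and 134 FPKM in shNC and 121, 175 and 171 FPKM in shARHGEF2 libraries. Only shARHGEF2 replicates 2 and 3 stood above the controls, while replicate 1 lay among them. The log2 fold change was 0.29 (standard error 0.14, 95% confidence interval -0.029 to 0.62, adjusted p = 0.409 in limma), and without shARHGEF2 replicate 1 it was 0.47. B2M per summed heavy chain was 0.379, 0.434 and 0.370 in shNC and 0.336, 0.455 and 0.469 in shARHGEF2 libraries. The group means of this ratio were 0.394 ± 0.0347 for shNC against 0.420 ± 0.0727 for shARHGEF2 (SD, n = 3 each), a difference smaller than the spread between libraries (two-sided exact permutation test, p = 0.7).

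TAP1 (ENSG00000168394, chromosome 6 from 32845209 to 32853978) had 28.7, 24.2 and 29.8 FPKM in shNC and 34.2, 35.7 and 34.8 FPKM in shARHGEF2 libraries, with no overlap. Its log2 fold change was 0.34 (standard error 0.10, 95% confidence interval 0.10 to 0.57, adjusted p = 0.209 in limma). TAP2 (ENSG00000204267, chromosome 6 from 32821833 to 32838780) had 14.8, 14.8 and 15.6 FPKM in shNC and 14.8, 14.9 and 15.5 FPKM in shARHGEF2 libraries. The TAP2 libraries were interleaved and varied least among the 9 genes (coefficient of variation 2.47%), and the log2 fold change was -0.00064 (95% confidence interval -0.20 to 0.20, adjusted p = 0.999 in limma), with its sign depending on the setting. TAP1 per TAP2 was 1.93, 1.64 and 1.92 in shNC and 2.31, 2.40 and 2.25 in shARHGEF2 libraries. That ratio was higher in 3 of 3 shARHGEF2 libraries than in any control (p = 0.1 by exact permutation, two-sided, again the lowest it can reach).

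Some reads of TAP2 may be counted elsewhere, since 35.2% of the 100-base windows of its transcript also occur in the overlapping gene AL669918.1, listed as AL669918 at 0.666 to 1.92 FPKM. PSMB9, an inducible proteasome subunit, lies beside TAP1 on the other strand and the annotated spans overlap. PSMB9 had 5.85, 3.82 and 4.35 FPKM in shNC and 5.17, 4.39 and 4.93 FPKM in shARHGEF2 libraries, so its groups overlapped where those of TAP1 did not. TAP1 per PSMB9, also added after the values were seen, averaged 6.03 ± 1.01 in shNC cells against 7.27 ± 0.777 in shARHGEF2 cells (SD, n = 3 each, two-sided exact permutation test, p = 0.2). The kit kept the strand, but whether counting used it is not given in the sources used here.

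**Figure D2:**
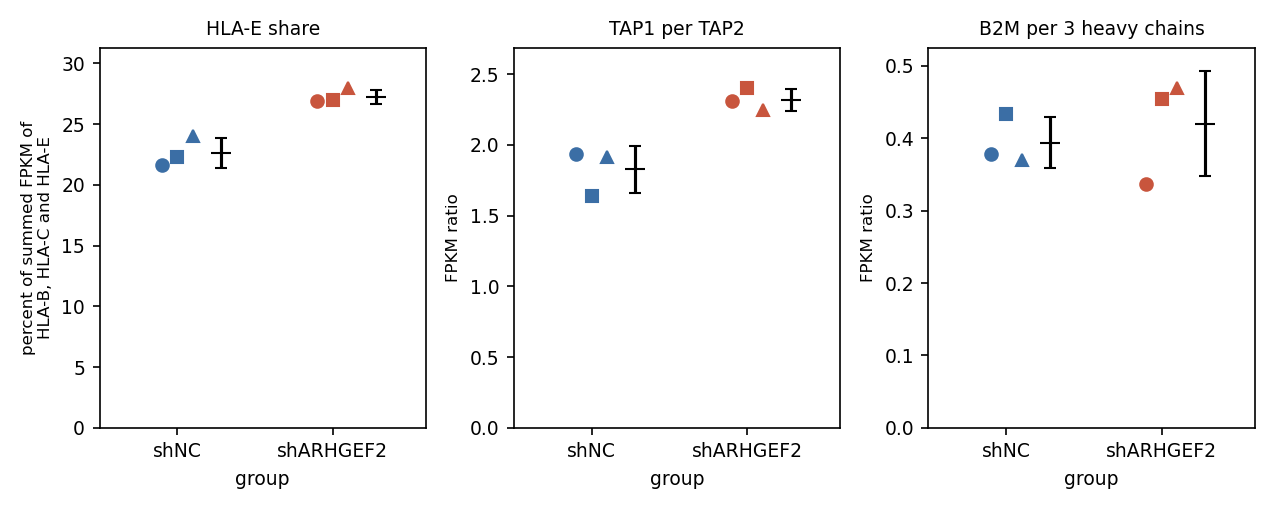
HLA-E as a percent of the summed FPKM of HLA-B, HLA-C and HLA-E, TAP1 FPKM per TAP2 FPKM, and B2M FPKM per summed FPKM of the 3 heavy chains, in each library; circles, squares and triangles are replicates 1, 2 and 3, and black bars are mean ± SD (n = 3). The groups are apart in the first and second panels and overlap in the third, where shARHGEF2 replicate 1 is the lowest library at 0.336.

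TAPBP (ENSG00000231925, chromosome 6 from 33299694 to 33314387), the tapasin gene, had 34.8, 35.8 and 39.6 FPKM in shNC and 50.0, 43.0 and 45.5 FPKM in shARHGEF2 libraries. The groups were apart, and shARHGEF2 replicate 1 was the highest. The log2 fold change was 0.32 (standard error 0.10, 95% confidence interval 0.10 to 0.54, adjusted p = 0.207 in limma). ERAP1 (ENSG00000164307, chromosome 5 from 96760810 to 96808100), the trimming peptidase, was near the lower limit of what was tested, at 0.613, 0.565 and 0.713 FPKM in shNC and 0.630, 0.651 and 0.606 FPKM in shARHGEF2 libraries. Its groups overlapped fully, and the log2 fold change was -0.00041 (95% confidence interval -0.23 to 0.23, adjusted p = 1.00 in limma), on a scale where the pseudocount of 1 shrinks the change of so low a gene. With a pseudocount of 0.1 it was 0.0016.

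NLRC5 (ENSG00000140853, chromosome 16 from 56989485 to 57083531), the class I transactivator, had 2.22, 2.26 and 2.71 FPKM in shNC and 1.89, 1.76 and 1.95 FPKM in shARHGEF2 libraries. Every shARHGEF2 library was below every shNC library, and the log2 fold change was -0.24 (standard error 0.12, 95% confidence interval -0.51 to 0.021, adjusted p = 0.404 in limma). The ratio of mean FPKM was 0.777, and with a pseudocount of 0.1 the log2 fold change was -0.34. The fitted values of HLA-E, TAP1 and TAPBP were above 0 and that of NLRC5 was below 0, and none of the 4 passed the threshold.

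**Figure D3:**
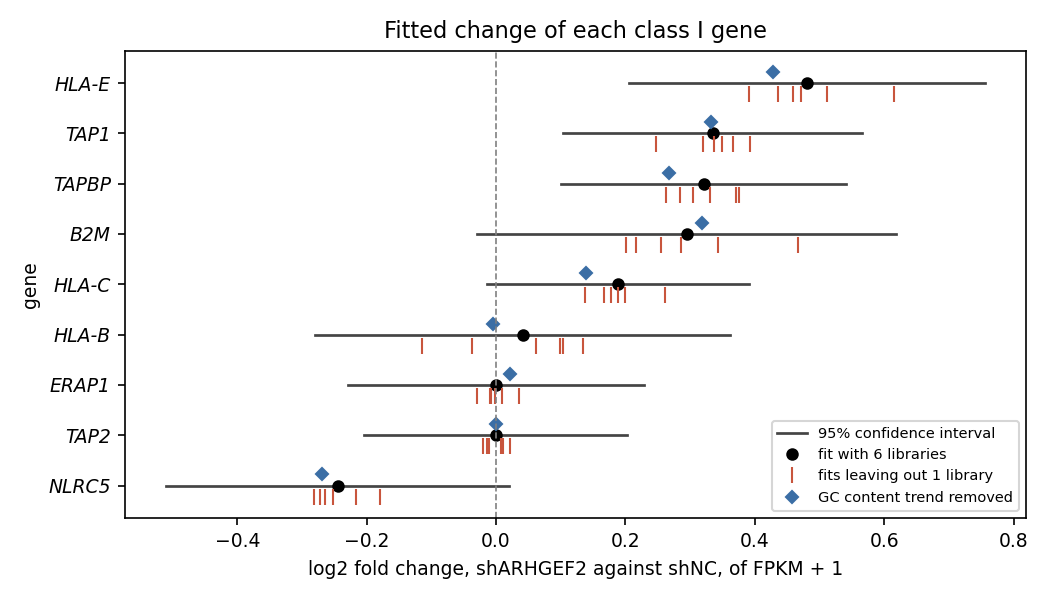
Fitted log2 fold change of FPKM + 1, shARHGEF2 against shNC, for the 9 genes, with the 95% confidence interval (line), the fits that leave out 1 library (red ticks) and the fit with the GC content trend removed (blue diamonds). The intervals of HLA-E, TAP1 and TAPBP lie above 0 before adjustment for the number of genes, that of NLRC5 reaches 0.021, and those of HLA-B, ERAP1 and TAP2 are centred near 0.

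Libraries of the same group differed along transcript GC content, and the 9 genes differ in it. Between GC content and the deviation of a library from the gene mean, Spearman's rho (computed over genes, not independent replicates) was 0.199, -0.465 and 0.144 in the shNC libraries and 0.570, -0.289 and -0.0269 in the shARHGEF2 libraries. The listed transcripts of TAPBP, HLA-E and HLA-C had the highest mean GC content (62.0, 61.5 and 60.5%) and those of B2M the lowest (42.1%). The shNC library with the lowest rho, replicate 2, was the lowest library for 5 of the 9 genes. These were HLA-E, HLA-B, TAP1, TAP2 and ERAP1, with GC contents of 61.5, 59.7, 54.0, 53.1 and 44.8%. TAPBP, HLA-C and B2M were lowest in shNC replicate 1, and NLRC5 in shARHGEF2 replicate 2. How often each library was lowest over all genes was not computed. With the trend removed the log2 fold changes were 0.43 for HLA-E, 0.33 for TAP1, 0.27 for TAPBP, 0.14 for HLA-C, 0.32 for B2M and -0.27 for NLRC5. In that fit 0 of the 9 genes were called in limma while 5 had an unadjusted p under 0.05. Over all 12231 genes in it, 47 were called and 2280 had such a p, against 1678 of 12291 in the main fit.

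Around these genes, the heavy chains and class I-like chains had 11 of 14 genes tested, and none was called. All 11 had a log2 fold change above 0 (median 0.20), against 49.6% of all genes tested, and 6 were higher without overlap, against 11.3% of all genes tested. These 11 include HLA-B, HLA-C and HLA-E. MICB, a stress-induced ligand of the natural killer receptor NKG2D, had 43.2, 41.4 and 49.0 FPKM in shNC and 61.8, 67.7 and 64.5 FPKM in shARHGEF2 libraries. This was the largest difference of the list (log2 fold change 0.53, standard error 0.09, adjusted p = 0.0742 in limma), and without shNC replicate 3 it passed, with adjusted p = 0.0440 in limma. For MICA, a related ligand, the difference was 0.44 on the log2 scale (limma, adjusted p = 0.117), and for PROCR, the endothelial protein C receptor with a class I-like fold, it was 0.41 (limma, adjusted p = 0.126). The groups of both were apart. HLA-G was listed at 0 in 5 of 6 libraries.

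The list of natural killer cell ligands, which shares MICA, MICB and HLA-E with that list, had 10 of 12 genes tested and none called. Of these, 9 were higher (median log2 fold change 0.37), against 49.6% of all genes tested, and 6 were higher without overlap, against 11.3%. MICA, MICB and HLA-E are 3 of those 6 and were counted in the previous list too. NECTIN2, an adhesion molecule, was the other abundant gene, at a mean of 48.2 FPKM, with a log2 fold change of 0.07. In the list for peptide loading and trimming, 9 of 12 genes were tested, 6 higher and 3 lower, against 49.6% higher over all genes tested, and none was called. B2M, TAP1 and TAPBP, described above, were among the higher, and TAP2 and ERAP1 among the lower. The lectin chaperone CALR (mean 460 FPKM) had a log2 fold change of 0.14 and the oxidoreductase PDIA3 (mean 94.2 FPKM) one of 0.12, with overlapping groups.

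The inducible proteasome subunits and the proteasome activator had 5 of 5 genes tested, 2 higher and 3 lower (median log2 fold change -0.0078). PSME1, an activator subunit, had the smallest p of the list (log2 fold change 0.17, adjusted p = 0.411 in limma), and its groups did not overlap. PSME2, its partner, had one of -0.0078 and the catalytic subunit PSMB10 one of -0.13. Among 6 cytosolic peptidases, 1 was higher and 5 were lower, with BLMH at 0.26 and LAP3 at -0.30 on the log2 scale and THOP1, the most abundant, at -0.08. None of these genes was called. Over all genes tested, 49.6% were higher.

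Regulators of class I transcription had 26 of 29 genes tested, with 0 called and 0 at an unadjusted p under 0.05 in limma. Of these, 8 were higher and 18 lower (median log2 fold change -0.05), against 49.6% higher over all genes tested. RFXANK, a subunit of the RFX complex, was at -0.33 on the log2 scale (limma, adjusted p = 0.442) and ATF1, a CREB family factor, at -0.24 (limma, adjusted p = 0.466). The NF-kB subunit RELA and the interferon gamma receptor chain IFNGR2, the most abundant of the list, were at -0.03 and -0.06. IRF1, an interferon-induced transcription factor named after its values were seen, had a log2 fold change of 0.08, and its groups did not overlap. It was the 1 tested gene of the list higher without overlap, and NLRC5 the 1 lower, against 11.3% and 9.17% of all genes tested.

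Class II presentation was measured at a low level, with 3 of 14 genes tested and the others that were in the table at 0.329 FPKM or less in every library, the class II transactivator CIITA among them. The peptide exchange genes HLA-DMA and HLA-DMB had means of 7.04 and 1.22 FPKM and log2 fold changes of 0.16 and 0.17, and the protease gene CTSS was at 0.17.

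**Figure D4:**
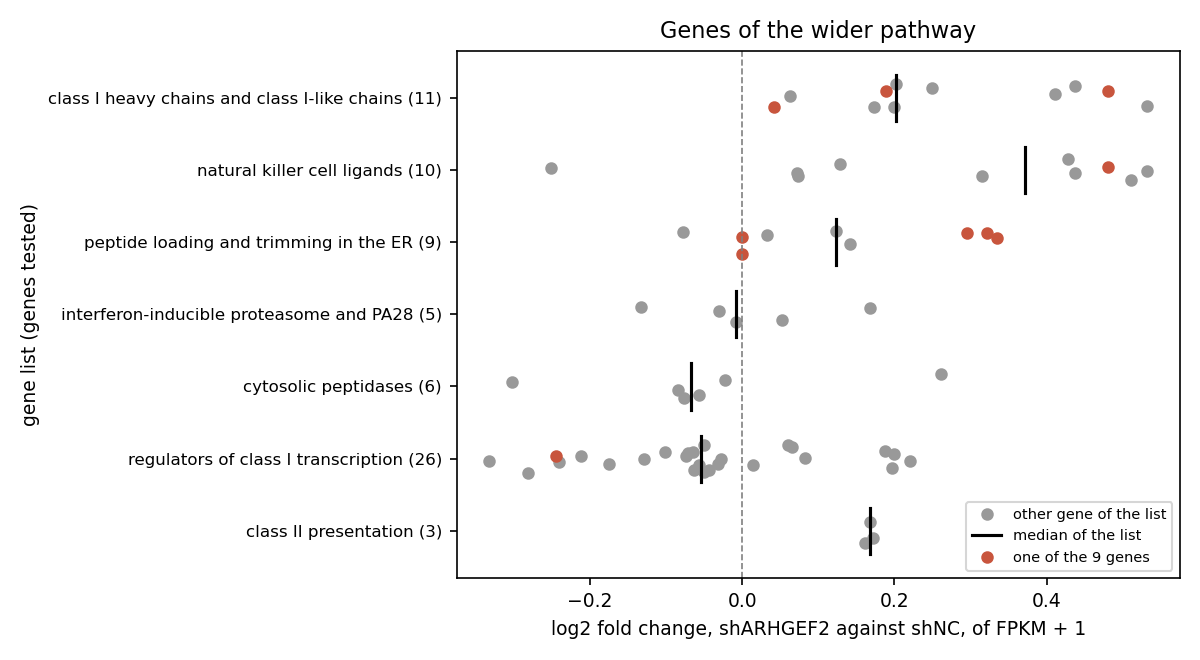
Fitted log2 fold change of FPKM + 1, shARHGEF2 against shNC, for every tested gene of 7 lists, with the 9 class I genes in red, other genes in grey and list medians as black lines; the vertical position within a row carries no value. The medians run from 0.37 for natural killer cell ligands to -0.07 for cytosolic peptidases, and no gene passed the threshold.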

How the data were processed

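Poly(A) RNA of 6 libraries was sequenced as paired reads with molecular identifiers. The authors deposited 1 table with FPKM per gene and library. The submitters' processing notes name cutadapt 1.9, HISAT2 2.0.4, UMI-tools, StringTie 1.3.4d, DESeq2, edgeR and hg19, and the annotation is not given in the sources used here. The authors' own ratio, log2 fold, p-value and q-value columns are in the deposited table and were not used. Of 112516 listed transcripts, 94.7% were found in GENCODE 29 (GRCh38), which gave positions, lengths and GC content.

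log2(FPKM + 1) was fitted with limma 3.58.1 (trend, robust, statmod 1.5.0, R 4.3.3) keeping a gene where its average over the 6 libraries reached 0.5 FPKM. P-values were adjusted by Benjamini-Hochberg over all genes tested, and genes were called under 0.05. Single values were compared by two-sided exact permutation tests. The fitting code was tried on simulated data with independent noise for each gene. That simulation held no GC content trend between libraries. Read pairs were estimated, since FPKM keep no counts, and no count test was run. Of the depths tried, the one that put most low values within 0.1 of a whole pair was kept. At that depth between 39.7% and 41.4% of low values did so. The 20% given by chance holds for a depth fixed beforehand, so it is not the chance level for the best depth of a search. A gene at 0.5 FPKM on a 2000 nt transcript stands for 20.04 to 23.32 pairs. Plots used Python 3.11.15, pandas 2.3.3, numpy 2.4.6 and matplotlib 3.10.9.

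The members and lists were chosen with earlier results of these data known. Named are the 9 genes, ARHGEF2 and, from each list, genes called, the 2 highest and the 2 with the smallest p among other genes. PSMB9, AL669918, HLA-G, IRF1 and CIITA were added after their values were seen. Some genes that this rule names are not reported here. The alternatives were a replicate block, another pseudocount, 2 other filters, quantile normalization, limma without trend and robust variances, and each library left out. Removal of a GC content trend (loess, span 0.3) was added after seeing the data.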

Additional observations from a re-analysis of the deposited data

How the results depend on the processing

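Over the alternatives, 0 of the 9 class I genes were called except without shNC replicate 3, so that leaving out 1 library gave 0 to 1 called, as it did for the wider pathway without these genes (MICB). The regulators had 0 called throughout. The number called over all genes was 34, against 0 with the replicate block, 1 with no filter beyond a value above 0, 54 with at least 1 FPKM in 3 or more libraries, 19 with quantile normalization and 7 in limma without trend and robust variances, and 6 to 102 with 1 library left out. With the block, 1976 genes had an unadjusted p under 0.05, and 5 of the 9 did. ARHGEF2 kept its log2 fold change of -1.47, with adjusted p = 0.0716 under the block and 0.0701 with no filter in limma. Whether the replicate numbers pair the libraries was not settled. Deviations of same-numbered libraries correlated at 0.184, 0.159 and -0.105 for replicates 1, 2 and 3. The replicate 1 libraries correlated best with each other, as did the replicate 2 libraries, while the replicate 3 libraries did not. The block changed no call of the 9 genes.

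With 1 library left out the log2 fold change ran from 0.39 to 0.62 for HLA-E (stronger without shNC replicate 3), from -0.11 to 0.13 for HLA-B, from -0.020 to 0.022 for TAP2 and from -0.029 to 0.036 for ERAP1. The last 3, near 0, also changed sign at -0.0052, 0.00061 and 0.022 with the GC content trend removed, and ERAP1 at 0.0016 with a pseudocount of 0.1. The cause was not tested. HLA-C, HLA-E, B2M, TAP1, TAPBP and NLRC5 kept their direction under all 13 alternatives, as did the summed heavy chains, B2M per heavy chain and TAP1 per TAP2 under all 7 of theirs. ERAP1 was not tested at 1 FPKM or more. Precision is limited by 3 libraries a group and, for ERAP1 and NLRC5, by low levels.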
